A study of Mus musculus with 1 sample.

Results

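The 35 genes described here encode lysosomal enzymes, lysosomal membrane proteins and 1 regulator of them, and all 35 were found by symbol among the 25661 genes of a single-cell count table of mouse bone marrow. They were listed by gene name with no rule on their values, but earlier results of these data were known when they were chosen. The list comprises 7 membrane proteins, 9 proteases and protease-like enzymes and 11 glycosidases and sulfatases. It also holds 5 enzymes or cofactors of lipid breakdown, 2 phosphatases and the transcription factor gene Tfeb. The table holds 1 library, made with the BD Rhapsody microwell system and the TAS-Seq amplification method, from bone marrow of 1 naive mouse and 1 mouse injected with LPS, the bacterial cell wall product that stimulates innate immune cells. Sorted cells carried 5 streptavidin-linked hashtags, A961 to A965, with 100 cells loaded for each of A961, A962 and A964 and 15000 cells for each of A963 and A965. The labels name the sorted populations as cKit+Lin- progenitors and GMP-MoPs of both mice and cMoPs of the naive mouse, but do not say which hashtag marks which population or mouse. The hashtags are therefore compared only as hashtags, and no value is assigned to a treatment. Strain, age and genotype are not given in the sources used here.

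The lysosome is the acidic organelle in which cells degrade proteins, glycans and lipids delivered by endocytosis, phagocytosis and autophagy. Its membrane proteins, such as LAMP1 and LAMP2, shield the membrane and carry out transport, while cathepsins, glycosidases and lipases act in the lumen. Tfeb encodes a transcription factor that binds E-box-like sequences, known as CLEAR elements, in promoters of lysosomal genes. In myeloid cells the same enzymes are also used to process antigen and to fill granules.

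The promoters were examined first, because CLEAR-like letters are a known feature of lysosomal promoters. The letters did not enter the choice of the genes, but the genes were chosen as lysosomal. Higher shares in their windows were therefore foreseeable and are given as a description only. RefSeq promoter windows (GRCm38.p6, 250 bases before to 50 bases after a start) were matched by symbol for 31 of the 35 genes, in 38 windows. The letters GTCACGTG, or their reverse complement CACGTGAC, were found in 21.1% of these windows and in 2.25% of all 32851 mouse promoter windows. They lay in windows of 8 genes, namely Ctsa, Ctsd, Gla, Glb1, Lamp1, Lgmn, Mcoln1 and Naglu. The 6-letter core CACGTG, which is contained in GTCACGTG and is its own reverse complement, was found in 26.3% of the windows against 7.15% of all windows. The letters TCACATGA, or TCATGTGA on the other strand, were found in 15.8% against 0.986%, in windows of Acp5, Ctss, Gla, Grn, Ppt1 and Tpp1. Over the 18386 windows of genes in the count table, the shares were 3.30% for GTCACGTG, 8.70% for CACGTG and 0.821% for TCACATGA. One or the other 8-letter form was found for 13 of the 31 genes, in 34.2% of their windows against 3.20% of all windows. The 10-letter palindrome in which both strands' forms of GTCACGTG overlap on the CACGTG core was found in 0 of the 38 windows, against 0.326% of all windows. A match is a description of the sequence and not a measured binding site. Below are stretches upstream of a RefSeq start with the matched letters in capitals, each 5′ to 3′ on the gene's strand. For Ctsd, Naglu and Acp5 the matched letters lie inside the bounds of the GENCODE gene. The first 6 stretches show the GTCACGTG form and the last 2 the TCACATGA form.
Lamp1, chr8:13159103-13159160, plus strand: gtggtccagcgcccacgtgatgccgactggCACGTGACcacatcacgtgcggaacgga
Mcoln1, chr8:3500416-3500483, plus strand: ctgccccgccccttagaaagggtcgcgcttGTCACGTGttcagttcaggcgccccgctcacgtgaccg
Ctsd, chr7:142387888-142387955, minus strand: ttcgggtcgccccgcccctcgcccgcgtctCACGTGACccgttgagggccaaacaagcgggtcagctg
Glb1, chr9:114400998-114401065, plus strand: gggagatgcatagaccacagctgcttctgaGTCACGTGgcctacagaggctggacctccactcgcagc
Naglu, chr11:101069989-101070056, plus strand: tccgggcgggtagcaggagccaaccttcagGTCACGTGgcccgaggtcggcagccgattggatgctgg
Gla, chrX:134601164-134601231, minus strand: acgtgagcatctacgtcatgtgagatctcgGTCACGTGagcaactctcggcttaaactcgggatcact
Grn, chr11:102430266-102430333, plus strand: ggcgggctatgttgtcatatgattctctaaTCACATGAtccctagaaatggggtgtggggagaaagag
Acp5, chr9:22130652-22130719, minus strand: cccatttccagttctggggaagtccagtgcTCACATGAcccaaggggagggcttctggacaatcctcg
In these stretches the matched letters begin 28 bases before the start in Lamp1, 73 in Mcoln1, 98 in Ctsd, 50 in Glb1, 75 in Naglu, 196 in Gla, 211 in Grn and 91 in Acp5. Second matches of the GTCACGTG form lay 45 bases before the start in Mcoln1 and 245 in Ctsd. Ctsa had 1 match of that form before its start and 1 after it, Tpp1 had 2 of the TCACATGA form after its start, and Gla was the only gene with both 8-letter forms. Of the 38 windows, 32 open a transcript of the GENCODE M21 annotation.

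After filtering, 10528 cells remained, 4716 with A963, 5567 with A965, 68 with A961, 104 with A962 and 73 with A964. The median cell had 20430.5 counts in A963 and 27205 in A965. Cells were placed in 10 gates by fixed lineage markers, none of which is a lysosomal gene of the 35, and 85.5% of cells received a gate; 12.3% lay within 0.1 of a gate limit. The 10 genes leading each gate held 2 to 7 of its own markers, which is no check because the same markers set the gates. Those of the GMP-like gate also held 1 marker of another type. Those of the basophil/mast-like gate also held 3 eosinophil markers, so that gate may be a mixture. Levels are given in CPM, in which the summed counts of a group of cells are scaled to a common total. The 95% intervals in parentheses are exact and reflect the number of counts alone, and log2 ratios were taken after adding 10 CPM. The library gives no replicate, so no test was made. The 35 genes took 0.859% of all counts, and Lyz2 alone made up 58.4% of theirs.

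The lysosomal genes were higher in the monocyte-like, conventional-dendritic-like and plasmacytoid-like gates than in the stem-like gate, and lower in the erythroid-like gate. The criterion was a 2-fold difference in the log2 ratio in both A963 and A965. In the monocyte-like gate 14 of 35 were higher and 1 lower, where 1.61% of all genes were higher and 1.49% lower. In the conventional-dendritic-like gate 17 were higher and 0 lower, against 1.87% and 1.20% of all genes. The plasmacytoid-like gate had 11 higher (1.53% of all genes) and 1 lower (1.01%). In the erythroid-like gate 1 was higher (1.78% of all genes) and 9 were lower (3.69%). The median log2 ratio of the 35 genes, averaged over both hashtags, was 0.77 in the monocyte-like, 1.09 in the conventional-dendritic-like, 0.42 in the plasmacytoid-like and -0.71 in the erythroid-like gate, while the median of all genes lay between -0.01 and 0 in these gates. Many genes of the table have too few counts to differ 2-fold on this scale. Among genes of at least 20 CPM in the higher group the shares were 6.36% higher and 4.74% lower in the monocyte-like gate, 6.75% and 3.83% in the conventional-dendritic-like, 5.72% and 3.16% in the plasmacytoid-like, and 6.86% and 12.5% in the erythroid-like gate.

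**Figure D1:**
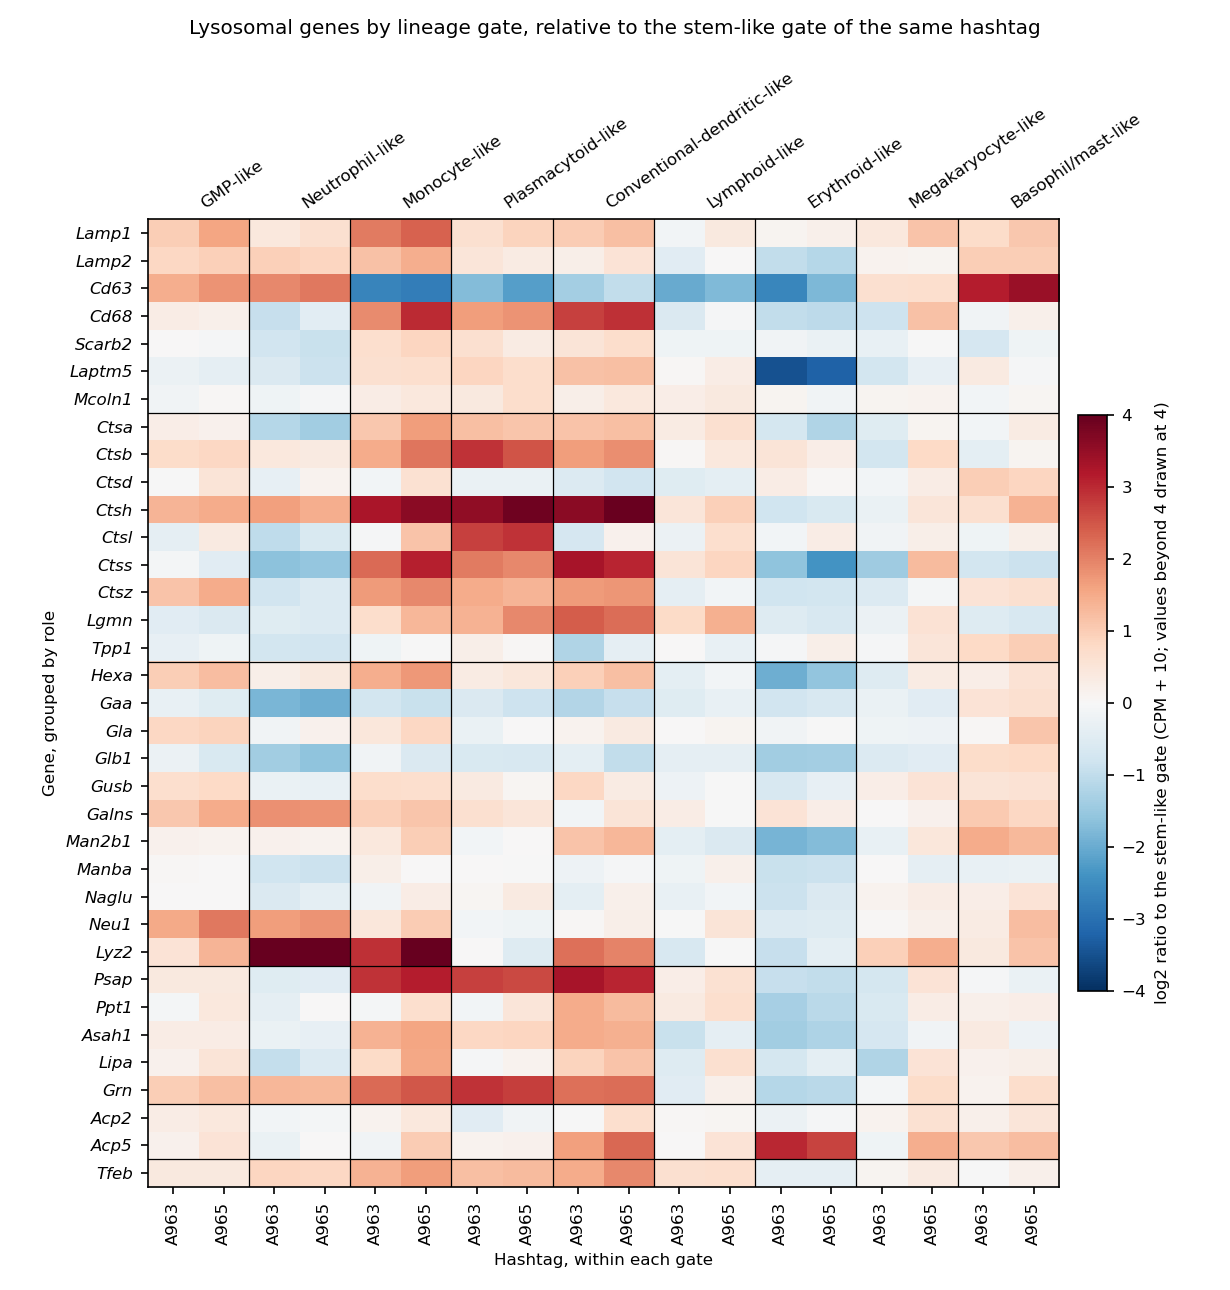
Each row is 1 of the 35 genes, grouped by role, and each column a gate in A963 or A965; colour gives the log2 ratio (10 CPM added) to the stem-like gate of the same hashtag. The monocyte-like, plasmacytoid-like and conventional-dendritic-like columns are mostly red, the erythroid-like columns mostly blue, and Cd63 runs against most other genes.

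Among the membrane proteins, Lamp1, a major glycoprotein of the lysosomal membrane, stood at 234 CPM in A963 and 226 CPM in A965 in the monocyte-like gate, against 47.3 and 36.1 CPM in the stem-like gate. That was 4.95-fold (4.27 to 5.77) and 6.25-fold (5.39 to 7.28) higher. Lamp2, which also serves chaperone-mediated autophagy, was 2.46-fold (2.17 to 2.80) and 2.96-fold (2.68 to 3.28) higher there. Both genes were highest in the monocyte-like gate in both hashtags, as was Scarb2, the receptor that carries glucocerebrosidase to the lysosome, at 53.7 and 64.1 CPM. Cd68, a macrophage-associated lysosomal glycoprotein, reached 119 CPM in A963 and 233 CPM in A965 in the monocyte-like gate, 223 and 225 CPM in the conventional-dendritic-like gate and 24.7 and 20.9 CPM in the stem-like gate. The dendritic levels were thus alike in both hashtags while the monocyte-like levels were not.

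Laptm5, a lysosomal membrane protein of blood cells, was highest in the conventional-dendritic-like gate, at 983 and 990 CPM, and lowest in the erythroid-like gate, at 28.9 and 36.0 CPM. The erythroid-like level was 14.8-fold (13.6 to 16.2) below the stem-like level in A963 and 11.9-fold (10.4 to 13.6) in A965. Mcoln1, the lysosomal calcium channel, ranged only from 7.75 to 21.5 CPM over all gates and both hashtags.

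Cd63, a tetraspanin of lysosomes and granules, had the opposite order. It was highest in the basophil/mast-like gate, at 1491 CPM in A963 and 1373 CPM in A965, and next highest in the neutrophil-like gate, at 639 and 534 CPM. In the monocyte-like gate it was at 17.4 and 8.33 CPM, 9.18-fold (7.89 to 10.7) and 13.8-fold (11.7 to 16.4) below the stem-like gate. It was also the 1 gene of the 35 that was lower in the plasmacytoid-like gate and the 1 that was lower in the lymphoid-like gate, where 0 of 35 were higher and 0.323% of all genes were higher and 0.312% lower.

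Cathepsins differed between the myeloid gates. Ctsh, an aminopeptidase that also cuts within chains, was at 334 and 400 CPM in the monocyte-like gate, 409 and 483 CPM in the plasmacytoid-like gate and 427 and 510 CPM in the conventional-dendritic-like gate, against 26.0 and 23.3 CPM in the stem-like gate. The monocyte-like level was 12.9-fold (10.6 to 15.8) and 17.2-fold (14.3 to 20.8) above the stem-like level. Ctss, a cathepsin of antigen-presenting cells that degrades the invariant chain, was at 769 and 753 CPM in the conventional-dendritic-like gate and at 371 and 792 CPM in the monocyte-like gate, for A963 and A965. In A963 the dendritic level was the higher, and in A965 the monocyte-like level was.

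Ctsl, a cysteine protease, was concentrated in the plasmacytoid-like gate, at 172 CPM in A963 and 162 CPM in A965. Its next highest level over the other gates was 40.3 CPM, in the monocyte-like gate of A965. Ctsb, a cysteine protease that also trims dipeptides, was likewise highest in the plasmacytoid-like gate, at 1105 and 792 CPM, 7.90-fold (7.23 to 8.64) and 6.07-fold (5.60 to 6.60) above the stem-like gate. These 2 genes were highest in that gate in both hashtags.

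Lgmn, the asparaginyl endopeptidase that processes cathepsins, was highest in the conventional-dendritic-like gate, at 73.8 and 73.2 CPM, 13.2-fold (8.41 to 21.6) and 9.51-fold (6.81 to 13.6) above the stem-like gate. It was low in the GMP-like, neutrophil-like, erythroid-like and basophil/mast-like gates, between 0.888 and 1.99 CPM. Ctsz, a carboxypeptidase, was 3.45-fold (3.11 to 3.84) and 4.04-fold (3.70 to 4.42) above the stem-like level in the monocyte-like gate. It was higher in the GMP-like gate as well, at 229 and 310 CPM against 97.4 and 104 CPM. The aspartic protease gene Ctsd and Tpp1, a tripeptidyl peptidase, did not follow the other proteases: both were highest in the basophil/mast-like gate, Ctsd at 332 and 317 CPM and Tpp1 at 56.9 and 62.9 CPM.

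The neutrophil-like gate had its own set. There 6 of 35 genes were higher than in the stem-like gate and 4 lower, where 1.84% of all genes were higher and 8.09% lower. Among genes of at least 20 CPM in the higher group, 7.36% were higher and 29.7% lower, so the lower count of the 35 genes is not above that background. Granule transcripts take a large share of counts in these cells: scaling by the median gene shifts the neutrophil-like to stem-like log2 ratio by 0.53 in A963 and 0.54 in A965. With that scaling 8 genes were higher (3.3% of all genes), with Lamp2 and Tfeb added, and 3 were lower (5.11%), with Ctsa no longer past 2-fold. Lyz2, the bactericidal lysozyme of myeloid granules and lysosomes, was at 13363 CPM in A963 and 11085 CPM in A965, 19.9-fold (19.1 to 20.6) and 21.6-fold (20.8 to 22.4) above the stem-like gate. Galns, the sulfatase of keratan sulfate, was at 48.3 and 49.7 CPM against 6.36 and 7.11 CPM, and the neutrophil-like gate was its highest in both hashtags.

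Members of the multienzyme complex in which CTSA protects the sialidase NEU1 and the beta-galactosidase GLB1 went different ways in the neutrophil-like gate. Neu1 was at 59.4 and 64.2 CPM against 12.0 and 11.4 CPM in the stem-like gate, 4.97-fold (3.71 to 6.79) and 5.61-fold (4.33 to 7.41) higher. Glb1 was at 6.98 and 6.71 CPM against 34.1 and 41.1 CPM, 4.88-fold (3.85 to 6.18) and 6.12-fold (5.11 to 7.31) lower. Ctsa was at 23.8 CPM in both hashtags against 64.9 and 78.8 CPM, 2.72-fold (2.34 to 3.17) and 3.31-fold (2.94 to 3.71) lower on the CPM scale. In the monocyte-like gate Ctsa was instead 2.27-fold (1.99 to 2.59) and 3.46-fold (3.12 to 3.83) above the stem-like level.

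Gaa, the acid alpha-glucosidase that breaks down glycogen, was the most reduced in the neutrophil-like gate on the CPM scale, at 1.95 and 1.59 CPM against 32.8 and 34.9 CPM, 16.8-fold (11.9 to 24.2) and 22.0-fold (16.7 to 29.2) lower. Ctss was 4.49-fold (3.82 to 5.27) and 3.80-fold (3.38 to 4.26) lower. A pair of stages within the gate, cells with at least 5 thinned Elane counts and cells with at least 3 thinned Retnlg counts, showed no 2-fold difference for any of the 35 genes in both hashtags, where 0.121% of all genes were higher and 0.0351% lower in the Retnlg cells.

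**Figure D2:**
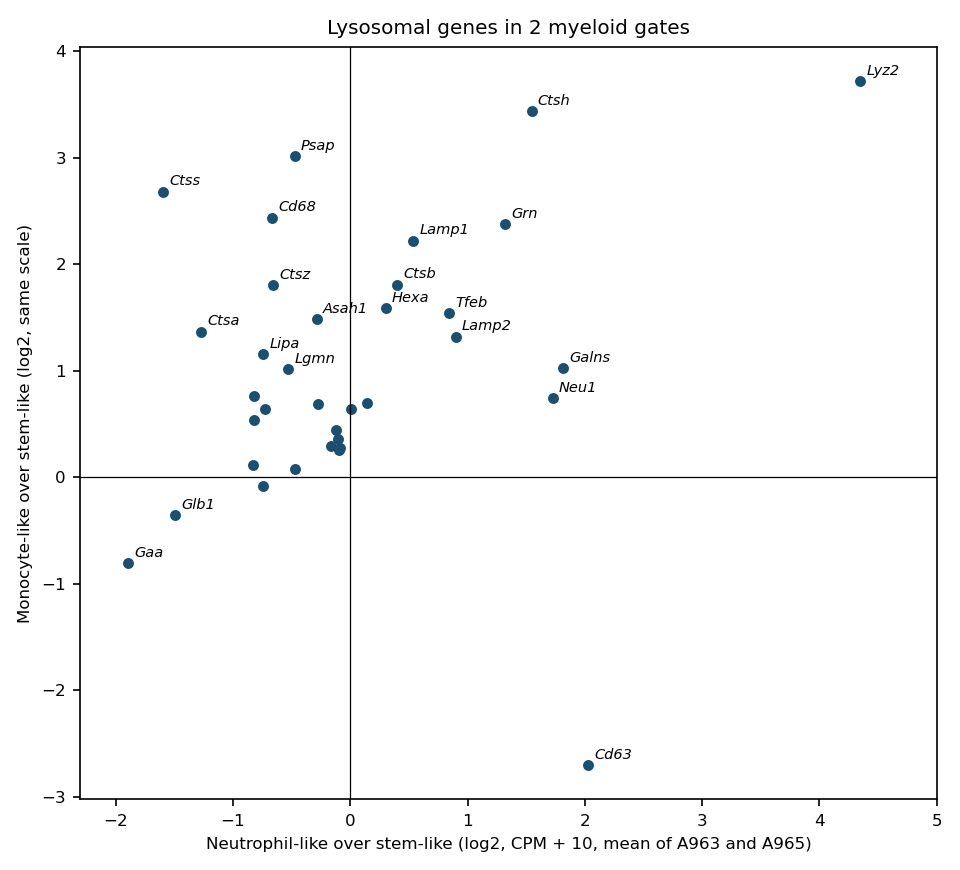
Each point is 1 of the 35 genes; axes give the log2 ratio (10 CPM added) to the stem-like gate in the neutrophil-like (horizontal) and monocyte-like (vertical) gates, as the mean of A963 and A965. Lyz2, Ctsh and Grn lie to the upper right, Ctss, Ctsa and Psap to the upper left, Gaa and Glb1 to the lower left, and Cd63 alone to the lower right; scaling by the median gene would move all points about 0.5 to the right.

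In the GMP-like gate 5 of 35 genes were higher than in the stem-like gate, where 0.951% of all genes were, and 0 were lower, where 1.14% were; among genes of at least 20 CPM in the higher group the share was 3.79% in each direction. These were Cd63, Ctsh, Ctsz, Galns and Neu1, of which all but Ctsz were also higher in the neutrophil-like gate. Neu1 reached 53.0 and 83.1 CPM. Scaling by the median gene gave 8 higher in this gate (1.06% of all genes), adding Lamp1, Hexa and Grn.

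Hexa, the alpha subunit of beta-hexosaminidase, was 2.94-fold (2.62 to 3.32) and 3.67-fold (3.29 to 4.10) above the stem-like level in the monocyte-like gate and lowest in the erythroid-like gate, at 13.2 and 16.5 CPM. Man2b1, an alpha-mannosidase, was at 203 and 171 CPM in the basophil/mast-like gate and at 159 and 176 CPM in the conventional-dendritic-like gate. Gaa, Glb1 and Naglu, the last an enzyme of heparan sulfate breakdown, were highest in the basophil/mast-like gate in both hashtags. Gusb, the beta-glucuronidase, Gla, the alpha-galactosidase, and Manba, the beta-mannosidase, were past 2-fold in no gate in both hashtags, and their levels ranged from 24.8 to 89.9, 3.75 to 25.9 and 3.27 to 18.8 CPM over the gates.

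Of the lipid genes, Psap, the precursor of the saposins that present sphingolipids to their hydrolases, was at 1916 and 2322 CPM in the monocyte-like, 1742 and 1643 CPM in the plasmacytoid-like and 2548 and 2164 CPM in the conventional-dendritic-like gate. In the stem-like gate it stood at 251 and 254 CPM. Grn, the precursor of the lysosomal granulins, was highest in the plasmacytoid-like gate, at 427 and 419 CPM, 8.74-fold (7.54 to 10.2) and 7.85-fold (6.92 to 8.94) above the stem-like gate. Asah1, the acid ceramidase, was 3.19-fold (2.64 to 3.89) and 3.64-fold (3.09 to 4.33) higher in the monocyte-like gate. Ppt1, a palmitoyl-protein thioesterase, was highest in the conventional-dendritic-like gate, at 149 and 112 CPM. Ppt1 overlaps Cap1, which lies on the other strand and had more counts than Ppt1 (77.9 against 47.1 CPM over all cells), and whether strand was used in counting is not given, so the Ppt1 values may hold reads of Cap1. Lipa, the acid lipase of cholesteryl esters, passed 2-fold over the stem-like gate in both hashtags in no gate.

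The phosphatases differed from each other. Acp5, the tartrate-resistant acid phosphatase, was highest in the erythroid-like gate in both hashtags, at 107 CPM in A963 and 71.1 CPM in A965, against 4.33 and 2.37 CPM in the stem-like gate. That was 24.6-fold (15.4 to 42.3) higher in A963 and between 17.0-fold and 58.5-fold higher in A965, and Acp5 was the only one of the 35 genes past 2-fold above the stem-like gate there. It was higher in the conventional-dendritic-like gate as well, at 34.4 and 50.2 CPM. Acp2, an acid phosphatase of the lysosomal membrane and lumen, was between 3.31 and 15.4 CPM in all gates. In the basophil/mast-like gate 3 of 35 genes, Cd63, Man2b1 and Acp5, were higher (1.01% of all genes) and 0 lower (0.429%), and in the megakaryocyte-like gate 0 were higher (0.491%) and 0 lower (0.433%).

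Tfeb was highest in the conventional-dendritic-like gate, at 38.0 CPM in A963 and 53.8 CPM in A965, followed by the monocyte-like gate, at 34.9 and 44.5 CPM. It was lowest in the erythroid-like gate, at 3.49 and 3.04 CPM. Across the 10 gates the log2 level of Tfeb and the mean of the other 34 genes had a Pearson r of 0.79 in A963 and 0.83 in A965, as a description over gates that share a library and differ in depth. With single genes of the list, Tfeb had a median r of 0.54 and 0.60. The median r over all pairs of the 35 genes was 0.31 and 0.43. No such value was taken for other genes. In all, 21 of the 35 genes had the same highest gate in both hashtags, and 15 were lowest in the erythroid-like gate in both. Of the 30 that reached 20 CPM in some gate of each hashtag, 63.3% had the same highest gate, close to the 59.4% of all 7878 genes that reached this level. The erythroid-like gate was the lowest for 14 of these 30, or 46.7%, against 15.9% of the 7878.

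**Figure D3:**
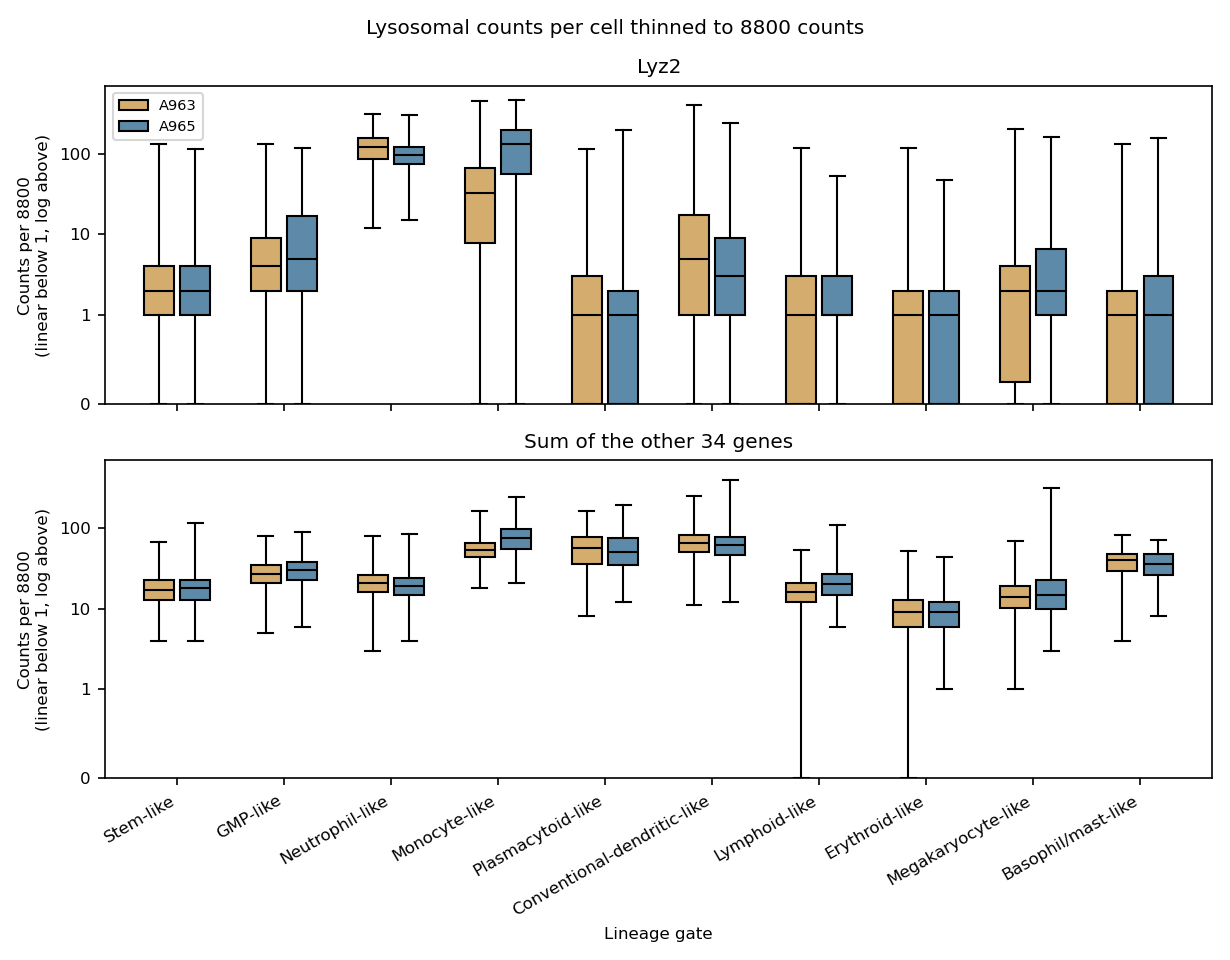
Counts per cell after each cell was thinned to 8800 counts, for Lyz2 (top) and for the sum of the other 34 genes (bottom), by gate and hashtag; boxes span the quartiles with the median as a line, whiskers reach the lowest and highest cell, and the axis is linear below 1 and logarithmic above. Lyz2 is highest in the neutrophil-like and monocyte-like gates, while the sum of the others is highest in the monocyte-like and both dendritic-related gates.

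Per cell, the 2 quantities separated the myeloid gates. In cells downsampled to 8800 counts each, the other 34 genes together had a median of 54 in A963 and 76 in A965 in the monocyte-like gate, 65 and 62 in the conventional-dendritic-like gate, 57 and 51 in the plasmacytoid-like gate, 21 and 19 in the neutrophil-like gate, 17 and 18 in the stem-like gate and 9 and 9 in the erythroid-like gate. Median Lyz2 was 122 and 98 in the neutrophil-like gate and 33 and 134 in the monocyte-like gate. In the erythroid-like gate, whose cells should lack Lyz2, the median was 1 in both hashtags and 59.9% and 55.9% of thinned cells held at least 1 count. The stem-like and plasmacytoid-like medians, 2 and 1, are near that background level. The monocyte-like cells of A963 spanned a wide range of Lyz2, from 7.75 at the first quartile to 67 at the third, against 56 to 197 in A965.

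The large hashtags, A963 and A965, were then compared for each of the 35 genes. Over all cells, 31 of 35 were higher in A965 by any amount, and the median log2 ratio of A965 over A963 was 0.29. The median over all genes was near 0, but it includes the many genes with too few counts to differ much on this scale. No share of all genes higher by any amount is given here, nor a median over genes of at least 20 CPM. For these values the 35 genes therefore have no matched background. By the log2 criterion of 1.5-fold, 2 were higher (0.624% of all genes, and 2.34% of genes of at least 20 CPM in the higher hashtag) and 1 was lower (0.861% and 2.65%), which is near that second background. Ctss was at 199 CPM in A965 and 114 CPM in A963, 1.75-fold (1.71 to 1.78) higher, and Neu1 at 54.1 and 30.7 CPM, 1.76-fold (1.70 to 1.83) higher. Acp5 was at 11.5 CPM in A965 and 30.8 CPM in A963, 2.67-fold (2.53 to 2.82) lower.

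The hashtags differed in their mix of gates, which moved with these values. The erythroid-like gate held 22.8% of the counts of A963 and 4.11% of those of A965, the neutrophil-like gate 19.5% and 26.9%, and the GMP-like gate 19.6% and 29.0%. With the gates of A965 weighted to the count shares of A963, a comparison added after the data were seen, the median log2 ratio was 0.12, Ctss alone passed 1.5-fold at 1.56-fold higher, Neu1 was 1.35-fold higher and Acp5 1.32-fold lower. The single-library design also ties each hashtag to other differences. Xist was at 611 CPM in A963 and 11.8 CPM in A965, and 4 Y-linked genes summed to 6.46 and 79.5 CPM, so the sex of the mouse, the mouse and anything done to it cannot be told apart between these hashtags.

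**Figure D4:**
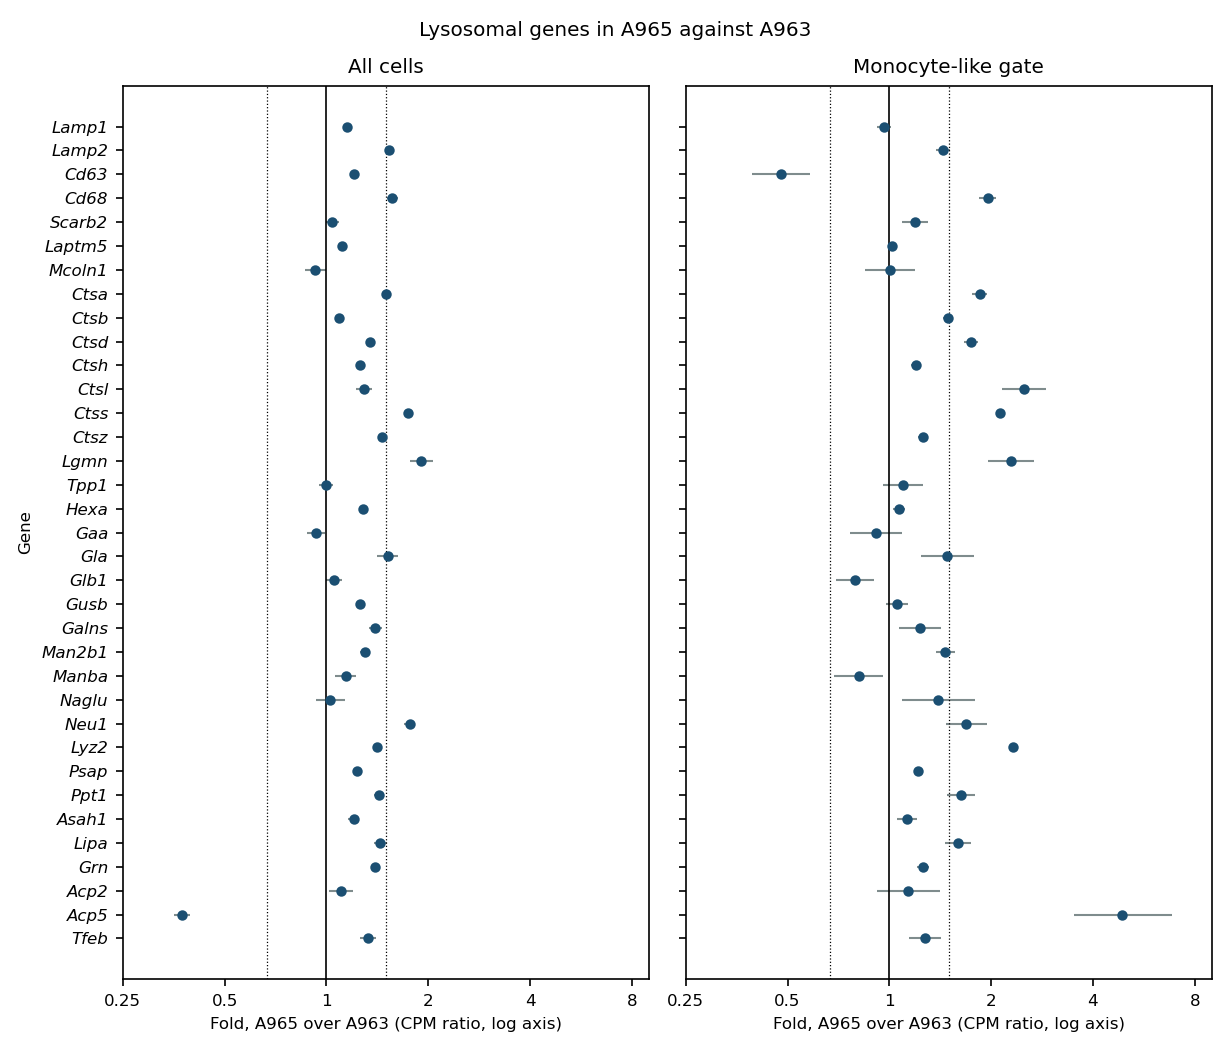
Points give the CPM ratio of A965 over A963 for each gene on a log axis, in all cells (left) and in the monocyte-like gate (right), with exact 95% counting intervals; dotted lines mark 1.5-fold either way. Acp5 lies far to the left over all cells and far to the right in the monocyte-like gate, where Lyz2, Ctss, Ctsl, Lgmn and Cd68 also lie near or above 2.

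Over 8 gates, 18 pairs of gene and gate were at least 1.5-fold higher in A965 and 3 lower, and 9 of the 18 lay in the monocyte-like gate. No share over all genes was counted for the pooled pairs, and the share of all genes past the fold also differed by gate. There 9 of 35 were at least 1.5-fold higher in A965 (1.08% of all genes) and 0 lower (0.394%), with a median log2 ratio of 0.28. Of genes of at least 20 CPM in the higher hashtag, 3.71% were higher and 1.47% lower. The count of 9 was 14 in cells thinned to 8800 counts and 14 by the mean of each cell's own CPM. In the stem-like gate 0 were higher (0.277%) and 0 lower (0.612%), in the GMP-like gate 0 and 0 (0.355% and 0.125%), in the neutrophil-like gate 0 and 0 (0.440% and 0.164%) and in the erythroid-like gate 0 and 0 (0.249% and 0.0624%). No test compares these counts between gates.

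In the monocyte-like gate, Lyz2 was at 11984 CPM in A965 and 5175 CPM in A963, 2.32-fold (2.30 to 2.34) higher, while in the neutrophil-like gate it was 1.21-fold (1.20 to 1.21) lower. Ctss was at 792 and 371 CPM, 2.13-fold (2.07 to 2.20) higher. Cd68 was 1.95-fold (1.85 to 2.07) higher, Ctsa 1.85-fold (1.76 to 1.95) and Ctsd 1.74-fold (1.66 to 1.83). The lower-count Ctsl, Lgmn and Acp5 were 2.50-fold (2.15 to 2.91), 2.29-fold (1.96 to 2.68) and 4.87-fold (3.53 to 6.88) higher, and Ppt1, with the overlap named above, 1.63-fold (1.48 to 1.79). Psap, in contrast, was 1.21-fold (1.19 to 1.23) higher, and Lamp1, at 226 and 234 CPM, and Laptm5, at 681 and 670 CPM, were nearly level. Cd63 was 2.09-fold (1.72 to 2.54) lower, at 8.33 and 17.4 CPM, short of 1.5-fold after 10 CPM was added.

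Maturation markers also differed, not all towards the same stage, and their part in these values was not tested. Of those named here, Ccr2, Csf1r, Fn1, F13a1 and Ly6c2 are markers that set this gate. Mpo and Elane are markers of the GMP-like gate. All these levels therefore depend on the gating and are no independent measure of maturation. Mpo, an early granule gene, was at 341 CPM in the monocyte-like gate of A965 and 677 CPM in that of A963, and Elane, another, at 552 and 930 CPM. Ccr2, a receptor of later monocytes, was at 613 and 439 CPM, Csf1r at 186 and 141 CPM and Fn1 at 128 and 80.9 CPM. The monocyte genes F13a1, at 577 and 667 CPM, and Ly6c2, at 6006.5 and 6999.6 CPM, were lower in A965. Cells with fewer than 3 thinned Mpo counts were 77.3% of that gate in A965 and 53.5% in A963. In these low-Mpo cells 14 of 35 genes were higher in A965 (1.38% of all genes) and 0 lower (0.705%). In the high-Mpo cells 3 were higher (0.386%), namely Ctsd, Ctsl and Lyz2, and Cd63 was lower (0.304%). Lyz2 was at 15004 and 6802 CPM in low-Mpo cells and at 6121 and 3676 CPM in high-Mpo cells, so it was higher in A965 in both. Ctss was at 1015 and 477 CPM in low-Mpo and 359 and 275 CPM in high-Mpo cells. Between low-Mpo and high-Mpo cells of the same hashtag, 0 of 35 genes differed 2-fold in both hashtags in either direction (0.109% and 0.0195% of all genes). That limit is stricter than the 1.5-fold used between hashtags. Lyz2 was 1.85-fold higher in low-Mpo cells in A963 and 2.45-fold in A965, Ctss 1.74-fold and 2.82-fold, and Cd68 1.97-fold and 3.10-fold. Not all genes went this way: Gaa was 1.46-fold and 1.37-fold lower. The split was chosen after the data were seen.

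The other differences lay in smaller gates. In the lymphoid-like gate 5 genes were higher in A965 (1.63% of all genes) and 0 lower (1.98%): Lamp2, Ctsl, Lgmn, Lipa and Grn. This count was 11 with 1 CPM added in place of 10 and 9 in thinned cells. Lipa was at 40.3 and 15.5 CPM, 2.59-fold (1.73 to 3.95) higher, in 105 and 119 cells. In the plasmacytoid-like gate Lgmn was higher (0.440% of all genes), at 57.8 and 30.5 CPM, and Cd63 and Lyz2 lower (0.799%). Lyz2 there was at 355 CPM in A965 and 683 CPM in A963, but its median per thinned cell was 1 in both, with upper quartiles of 2 and 3 and highest cells of 196 and 114. The neutrophil granule gene Camp was at 799 and 2610 CPM in the same gate, and its part in the Lyz2 difference was not tested. Lgmn was thus at least 1.5-fold higher in the monocyte-like, plasmacytoid-like and lymphoid-like gates of A965, but at 73.2 and 73.8 CPM in the conventional-dendritic-like gate.

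In the conventional-dendritic-like gate 3 genes were higher in A965 (0.904% of all genes), Ctsl, Tpp1 and Galns, all under 20 CPM, and Lyz2 was lower (1.18%), at 2061 against 3152 CPM. This gate held cells with at least 3 thinned counts of C1qa, C1qb and C1qc, genes of macrophages, 13 in A963 and 15 in A965, and the 10 macrophage markers summed to 583 and 246 CPM. In those cells 14 of 35 genes were at least 2-fold higher than in the gate's other cells in both hashtags (0.978% of all genes) and 0 lower (1.01%). Ctsd, for instance, was at 432 and 491 CPM against 77.0 and 73.9 CPM, and Lyz2 at 8992 and 6031 CPM against 2582 and 1847 CPM. Without them the gate had 15 genes above the stem-like level in place of 17, and 0 genes were 1.5-fold lower in A965 (1.35% of all genes), with Lyz2 1.40-fold lower. Higher there were 4 genes (0.978%), Lamp2, Tpp1, Galns and Acp5. Camp moved with Lyz2 here too, at 1471 and 2793 CPM in the whole gate. Lgmn, nearly level in the whole gate, was at 66.8 CPM in A965 and 43.8 CPM in A963 without the C1q cells. That was 1.53-fold (1.20 to 1.96) higher, short of 1.5-fold after 10 CPM was added. In the C1q cells Lgmn was at 191 CPM in A965 and 381 CPM in A963.

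The small hashtags, of 68, 104 and 73 cells, were mostly monocyte-like in A961 (55.9%) and A964 (50.7%) and most often GMP-like in A962 (38.5%). For A962 more cells were kept, 104, than the 100 that were loaded, and the reason is not given. Whether cells of other hashtags are among those of A962 was not tested, so its values are uncertain. In the monocyte-like gate, with 38, 17 and 37 cells of A961, A962 and A964, Lyz2 was at 5553, 13327 and 15151 CPM. The A961 level was near that of A963 and the others near or above that of A965. Ctss was at 343 CPM in A961, 785 in A962 and 613 in A964, and Cd68 at 114, 259 and 220 CPM. For these 3 genes A961 thus lay with A963, and A962 and A964 lay with A965.

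Comparing A961 with A964 within the monocyte-like gate, 10 of 35 genes were lower in A961 (3.64% of all genes) and 0 higher (5.48%): Cd68, Ctsd, Ctsl, Ctss, Lgmn, Man2b1, Lyz2, Lipa, Acp5 and Tfeb. The count stayed between 9 and 13 under 7 other settings. Lyz2 was 2.73-fold (2.65 to 2.81) lower and Tfeb, at 18.2 against 42.3 CPM, 2.33-fold (1.34 to 4.18). Xist was at 608 CPM in A961, 68.8 CPM in A964 and 287 CPM in A962 in this gate, and the Y-linked genes at 19.1, 90.5 and 27.7 CPM, so these hashtags differ in sex-linked genes as well. Over all their cells, A962 had 6 genes lower than A964 (1.97% of all genes) and 1 higher (1.55%), A961 had 2 lower (1.62%) and 1 higher (2.01%) than A964, and A961 had 1 higher (1.73%) and 0 lower (1.21%) than A962. These comparisons over all cells mix the gates.

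**Figure D5:**
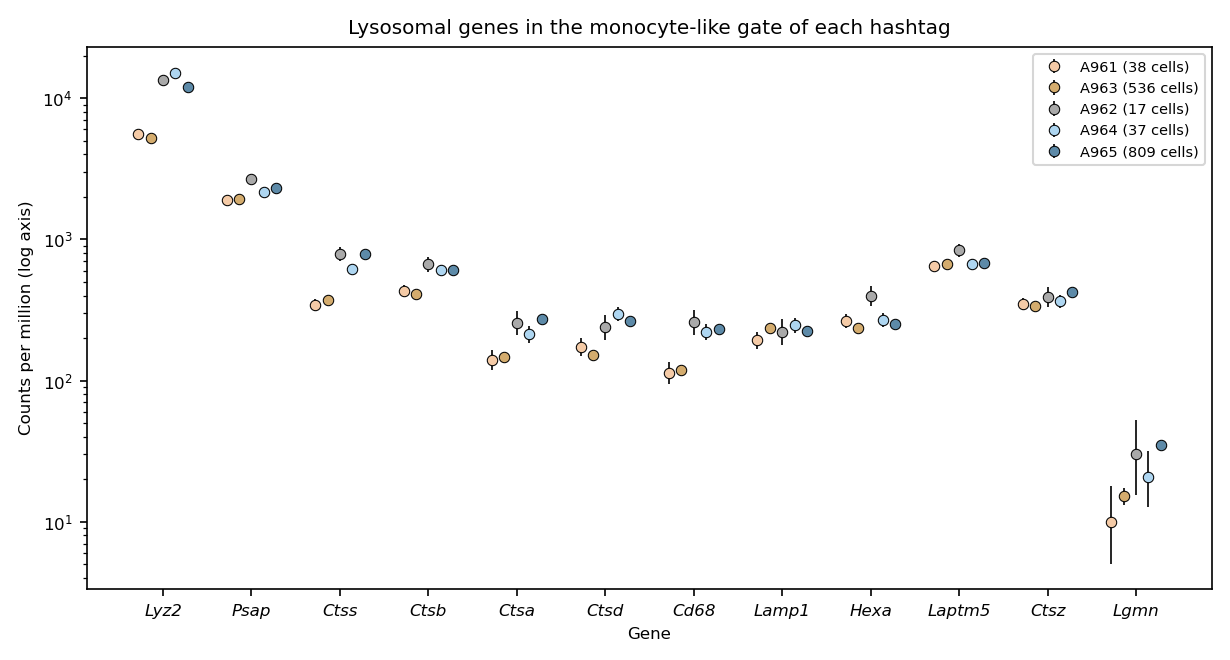
CPM on a log axis for 12 of the genes in the monocyte-like gate, with 1 point per hashtag and exact 95% counting intervals; the legend gives the number of cells. A961 and A963 lie together and below A962, A964 and A965 for Lyz2, Ctss and Cd68, while Lamp1 and Laptm5 show no such separation.

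Wider lysosomal lists gave the context. Over all cells, of the 15 proton pump subunits none passed 1.5-fold between A963 and A965, of 25 other hydrolases and helpers only Ctsc did, and of 7 cathepsin inhibitors Stfa1 and Stfa2 did, all higher in A965. Ctsc, the dipeptidyl peptidase that activates granule proteases, was at 113 CPM in A965 and 47.6 CPM in A963, and at 440 and 192 CPM in the monocyte-like gate, 2.30-fold (2.20 to 2.40) higher. Stfa1, a cytosolic cysteine protease inhibitor, was at 57.1 and 12.1 CPM. Against the stem-like gate, 4 of the 15 proton pump genes were higher in the monocyte-like gate in both hashtags, with a list median log2 ratio of 0.92. The 12 genes of sorting to the lysosome had 0 higher in that gate, with a median of 0.23. There 4 of 25 other hydrolases and helpers, 2 of 15 regulators, 2 of 7 cathepsin inhibitors and 0 of 12 other membrane proteins were higher. None of the lists had a gene lower. Between A965 and A963 in the monocyte-like gate, Slc11a1 was also past 1.5-fold higher and Arsb past 1.5-fold lower. The shares of all genes past these folds are those given above for the same comparisons.

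A few of the 35 genes carry limits of counting. Lyz1, a near copy of Lyz2 that lies 5475 bases away on chromosome 10, had 2.84% as many counts as Lyz2, so reads may be shared. Besides Ppt1, 15 more of the genes overlap another annotated gene. Ctsz overlaps Nelfcd (31.6 CPM over all cells) and Ctsb overlaps Fdft1 (17.6 CPM), both well below the gene itself. Acp2 overlaps Ddb2 on the other strand, at 5.79 CPM against 8.62 CPM for Acp2, so the Acp2 values may hold reads of Ddb2. Whether the deposited counts are reads or molecules is not given in the sources used here, and counts that are not independent would make every interval too narrow. Fewer cells of a kind within a gate and less RNA per cell cannot be told apart in summed counts.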

How the data were processed

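Deposited values were whole-number counts per gene and cell of 1 library; per the labels, cells came from 5 hashtags, and the build was GRCm38. Per the submitters' processing notes, Seurat 4.2.0 and R 4.2.1 were used; aligner and counter are not given in the sources used here. Of 10731 cells, 190 named doublets and 6 without a hashtag were left out, and 7 more were removed for under 500 genes or over 20% mitochondrial counts. Scrublet called 242 (2.30%), which were kept. Gates used mean z-scored log marker levels (score at least 0.5, margin at least 0.25), a rule set after seeing the data. Counts were summed per gate and hashtag. A963 and A965 were compared in gates with at least 100 cells in each (8 of 10). Ratios of the small hashtags and of gates to the stem-like gate used the same summed counts, and the smallest cell total was 8822. Every one of the 35 genes may be named; of each wider list, at most 3 by largest log2 ratio with 20 CPM or more, and others were named after their values were seen. The members and lists were chosen with earlier results of these data known. The ratio script was tested on simulated data. Alternatives are given in the closing section. Tools: Python 3.11.15, scipy 1.17.1, scanpy 1.11.5.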

Additional observations from a re-analysis of the deposited data

Results flagged for a closer look

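Lyz2 stood out because its A965 to A963 difference had a different sign in different gates. Its log2 ratio, after 10 CPM was added, was 1.21 in the monocyte-like gate, -0.93 in the plasmacytoid-like gate and -0.61 in the conventional-dendritic-like gate. In the plasmacytoid-like gate the median Lyz2 count per thinned cell was 1 in both hashtags, the level of the erythroid-like background, and the highest cells held 196 in A965 and 114 in A963. The difference between the gates was not tested. The conventional-dendritic-like value was -0.48 without the C1q cells, at 1847 CPM in A965 and 2582 CPM in A963.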

How the results depend on the processing

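Of 185 recounts under other settings, 149 stayed within 1.5 times. Of 976 log2 values of genes past a fold, 339 moved, by more than the half-width of their counting interval or, against the stem-like gate, by more than 0.1, and 0 changed sign. Over all cells, genes higher in A965 numbered 4 with median-of-ratios scaling, 4 with totals without mitochondrial and granule genes, 5 with 1 CPM added and 1 with weighted gates; lower, 0 when thinned to 8800 counts and 0 with weighted gates. In the monocyte-like gate they numbered 14 when thinned, 14 with the mean of each cell's own CPM, and 14 and 3 in low-Mpo and high-Mpo cells; in the lymphoid-like gate 11 with 1 CPM added and 9 when thinned. Pairs of gene and gate higher were 35 with 1 CPM added and 34 when thinned; lower, 7 with 1 CPM added and 5 with gates lacking their most abundant marker. Against the stem-like gate, GMP-like higher was 8 with median-of-ratios scaling, 9 with 1 CPM added, 9 without Scrublet calls, 8 with totals without granule genes and 8 without C1q cells; with 1 CPM added, neutrophil-like lower was 10, erythroid-like lower 15 and basophil/mast-like higher 5, also 5 when thinned. For all cells of the small hashtags, A962 below A964 gave 13 with 1 CPM added and 11 when thinned; A961 below A964 gave 4 with median-of-ratios scaling, 5 with 1 CPM added, 1 without Scrublet calls, 5 when thinned and 4 with totals without granule genes. The wider lists gave 6 higher and 2 lower with 1 CPM added, 5 higher when thinned and 5 with totals without granule genes. The cause was not tested. The C1q, Mpo and weighted-gate alternatives were chosen after seeing the data. No paired analysis was possible because 1 library was made.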
